A study of Mus musculus with 103 samples.

Results

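The expression of 10 genes of bone morphogenetic protein (BMP) signalling was followed through the early mouse face: the ligand genes Bmp2, Bmp4, Bmp5 and Bmp7, the inhibitor genes Nog, Bambi and Smad6, and the target genes Id1, Id2 and Id3. They were taken by gene symbol, as known members of the pathway and with earlier results of these data known, and are 10 of the 19938 genes with a value and a single symbol on the array. Each was read by 1 probe set, and all 10 had a value in every library. The atlas holds 103 laser-captured samples from flash-frozen embryos of the outbred CD1 strain, collected on 3 successive embryonic days counted from the vaginal plug (E8.5 to E10.5). All but 1 of them, whose labels conflict, fall into 22 groups. No group carries a mutation or treatment.

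At E8.5 the labels name 4 regions: caudal, floor plate and non-floor plate neural epithelium, and mesenchyme (18 libraries). At E9.5 they name 6: neuroepithelium, cranial mesenchyme, maxillary arch, mandibular arch, epidermal ectoderm and otic vesicle (34 libraries). At E10.5 they name 12 (50 libraries): medial and lateral nasal prominence, the neuroepithelium (NE) lying under each, midline neuroepithelium, a control neuroepithelium that does not flank the facial prominences, olfactory pit, Rathke's pouch, the maxillary and mandibular arches, and the ectoderm of each arch. Groups hold 4 to 7 libraries. Which embryo a library came from is not given. The p-values measure the spread between libraries and would be too small if several libraries of a group came from the same embryo. Any sharing of embryos between groups was not modelled in the main fit.

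BMPs are secreted ligands of the TGF-beta superfamily. They bind paired serine/threonine kinase receptors, which phosphorylate the receptor Smads; these join Smad4 and act on target genes in the nucleus. Noggin, the product of Nog, binds the ligands outside the cell. Bambi encodes a receptor-like membrane protein without a kinase domain, and Smad6 an inhibitory Smad inside the cell. Both inhibitor genes, like Id1, Id2 and Id3, are themselves induced by the pathway in many cell types. The Id proteins are helix-loop-helix factors that pair with basic helix-loop-helix activators and keep them from DNA. In the embryonic head BMPs take part in dorsal neural patterning, neural crest formation, growth of the facial prominences and formation of the placodes.

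Promoters are shown for 4 of the genes that varied among the E10.5 groups (Bmp4, Smad6, Id2 and Id3), those of the 7 that the reference table held. The 250 bases before the RefSeq start (GRCm38.p6) are written 5′ to 3′ on the gene's strand, for Bmp4 (chr14:46390670-46390919, minus strand), Id2 (chr12:25096093-25096342, minus strand), Id3 (chr4:136143572-136143821, plus strand) and Smad6 (chr9:64022060-64022309, minus strand). Capitals mark letters of 3 short motifs that have been described for Smad proteins, searched on both strands. The first is GGCGCC, which is its own reverse complement. The next is GGAGCC, which reads as GGCTCC on the opposite strand. The last is CAGAC, which reads as GTCTG on the opposite strand. None of them overlaps another in these promoters.
Bmp4: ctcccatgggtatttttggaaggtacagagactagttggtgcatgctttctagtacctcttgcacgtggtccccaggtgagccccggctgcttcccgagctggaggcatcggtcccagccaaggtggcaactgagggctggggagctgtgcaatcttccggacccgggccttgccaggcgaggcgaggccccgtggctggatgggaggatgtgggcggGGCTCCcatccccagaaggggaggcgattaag
Id2: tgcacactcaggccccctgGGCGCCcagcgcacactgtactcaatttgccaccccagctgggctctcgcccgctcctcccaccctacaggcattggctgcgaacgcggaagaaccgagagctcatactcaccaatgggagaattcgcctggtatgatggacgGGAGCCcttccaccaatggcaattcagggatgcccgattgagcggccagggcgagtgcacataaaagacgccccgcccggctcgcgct
Id3: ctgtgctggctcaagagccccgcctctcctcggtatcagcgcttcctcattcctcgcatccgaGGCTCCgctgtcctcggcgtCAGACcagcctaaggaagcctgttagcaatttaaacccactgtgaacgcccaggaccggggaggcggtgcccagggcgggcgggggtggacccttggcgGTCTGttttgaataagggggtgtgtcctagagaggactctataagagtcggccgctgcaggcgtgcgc
Smad6: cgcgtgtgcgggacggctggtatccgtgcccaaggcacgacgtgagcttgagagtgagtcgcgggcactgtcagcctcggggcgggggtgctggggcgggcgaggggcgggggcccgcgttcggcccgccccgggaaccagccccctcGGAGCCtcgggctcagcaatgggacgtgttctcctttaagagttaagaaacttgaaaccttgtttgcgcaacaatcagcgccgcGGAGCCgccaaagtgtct

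Among 32851 RefSeq promoters of this length, 9.6% hold GGCGCC, 26.0% hold GGAGCC and 42.2% hold CAGAC on either strand. Id2 has 1 GGCGCC, starting 231 bases before the start, and 1 GGAGCC. Id3 has 1 GGCTCC and 2 matches to CAGAC, 1 on each strand. Smad6 has 2 GGAGCC, the nearer starting 18 bases before the start, and Bmp4 has 1 GGCTCC, 32 bases before it. Bmp5, whose differences are given below, has 1 GTCTG. A match of letters is a description and not a binding site. Promoters were matched for 5 of the 10 genes; Bmp2, Bmp7, Nog, Bambi and Id1 are named without a sequence.

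Values are log2 of the ratio that the authors deposited, relative to a baseline near the median over 21 of the arrays. A value of 1 is a 2-fold higher ratio than the baseline, values compare libraries for a single gene, and they give no order of levels between genes. Means are given ± SD with the number of libraries, differences ± SE. A gene passed the test where limma's Benjamini-Hochberg adjusted p over 19938 genes was under 0.05; adjusted p below always means this. The SD of all log2 ratios on an array ran from 0.4 to 1.35, and 11 arrays above 0.85 are called widely spread here. Bulk tissue cannot tell fewer cells that express a gene from less RNA in each cell. Because values are ratios, a gene or marker at 0 is at the baseline, not absent.

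Over 25 comparisons of regions or stages, 21 of 250 pairs of gene and comparison passed, and they fell in 7 comparisons. In those 7, the share of all genes that passed ran from 0.296% to 37%. Calls numbered 7, 5 and 4 in the comparisons with the largest shares of all genes (20.9%, 20.3% and 37% in turn). By an F test over the groups of a stage, 3 of the 10 genes varied at E8.5 (Bmp5, Bmp7, Id1), where 4.24% of all genes passed, 3 at E9.5 (Bmp4, Bmp7, Bambi; 17.7% of all genes), and 7 at E10.5 (Bmp4, Nog, Bambi, Smad6, Id1, Id2, Id3; 34% of all genes). The smallest adjusted p of these was that of Id1 at E10.5 (2.65e-10). At E8.5 the count fell to 1 without the widely spread arrays and when any of 9 libraries was left out (caudal replicates 1, 2 and 4, floor plate replicates 1, 2 and 3, mesenchyme replicates 3, 4 and 5). Bmp2 passed in no F test (adjusted p 0.286 to 0.643) and in no comparison.

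**Figure D1:**
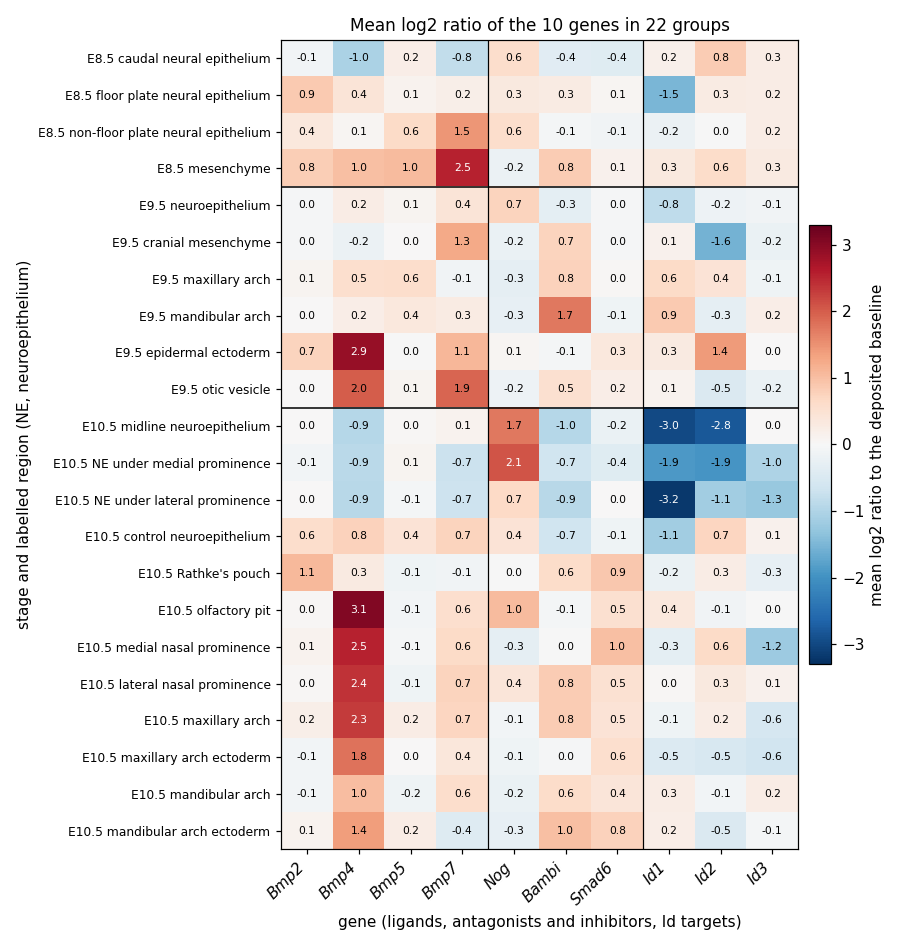
Mean log2 ratio of each gene (columns) in each of the 22 groups (rows, ordered by stage; NE, neuroepithelium). Red is above and blue below the deposited baseline; the highest means are those of Bmp4 in the E10.5 olfactory pit (3.06) and E9.5 epidermal ectoderm (2.88), and the lowest is that of Id1 in the E10.5 neuroepithelium under the lateral prominence (-3.19).

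At E8.5 Bmp7 was the ligand gene that set mesenchyme apart. Its log2 ratios in the 5 mesenchyme libraries were 2.87, 3.26, 1.82, 2.29 and 2.42. In the caudal neural epithelium they were -0.96, -0.56, -0.94 and -0.79, and in the floor plate -0.27, -0.28, 0.10 and 1.19. In the non-floor plate they were -0.05, 2.96, -0.68, 2.34 and 2.73, so that 3 of its 5 libraries lay within the mesenchyme range and the other 2 with the caudal and floor plate libraries. Mesenchyme thus exceeded every caudal and floor plate library but overlapped the non-floor plate.

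Bmp7 was 2.25 ± 0.50 higher in mesenchyme than in the mean of the 3 neural epithelia (4.77-fold, adjusted p = 0.00181). With the compared groups alone and replicate number as a block, the Bmp7 difference was 2.16 and did not pass (adjusted p = 0.0558). Bmp5, a ligand gene related to Bmp7, was 0.72 ± 0.20 higher (adjusted p = 0.0322). Its mesenchyme values were 0.35, 0.03, 1.17, 1.36 and 2.33, against 0.09 to 1.40 in the 13 neural libraries, and the sides overlapped. These 2 were the members that passed, both higher, where 2.4% of all genes passed (1.65% higher, 0.752% lower). The median difference of the 10 genes was 0.57, against -0.02 over all genes. Id1 (0.85), Bambi (0.88) and Bmp4 (1.16) had positive differences that did not pass (adjusted p 0.362 to 0.832), as did Smad6 (0.29), Bmp2 (0.42) and Id2 (0.25), while that of Nog was -0.68 (adjusted p = 0.689) and that of Id3 0.04.

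The Bmp5 result rested on few libraries. It did not pass without mesenchyme replicate 3 (adjusted p = 0.0974), 4 (0.151) or 5 (difference 0.40, adjusted p = 0.689) or non-floor plate replicate 5 (0.0542), under quantile normalization (0.17), without the widely spread arrays (0.0551) or with the compared groups alone (0.357). The list of 12 mesenchyme markers averaged 1.84 to 2.38 in the mesenchyme libraries and -1.06 to 0.27 in the neural ones. The list of 10 endothelial markers averaged 1.36 to 2.18 against -0.39 to 0.01, so endothelial markers moved with the mesenchyme libraries, and their part in the results was not tested. Of 54 other measured BMP pathway genes, 8 were higher and 0 lower in mesenchyme. The largest differences were those of Msx1, a homeobox target gene (2.31 ± 0.45, adjusted p = 0.000296), Nbl1, a secreted antagonist of the DAN family (1.81 ± 0.44, adjusted p = 0.00705), and Fstl1, a follistatin-related gene (1.80 ± 0.51, adjusted p = 0.034).

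Within the neural epithelium, Bmp7 was 2.27 ± 0.63 lower in the caudal than in the non-floor plate libraries (adjusted p = 0.0418), the only member to pass where 1.41% of all genes did (1.17% higher, 0.241% lower). The caudal values lay between -0.96 and -0.56, while the non-floor plate values ran from -0.68 to 2.96 and overlapped them. The call was lost when any of 7 of the 9 libraries was left out (all but non-floor plate replicates 1 and 3; adjusted p 0.0755 to 0.2) and with the 2 groups alone (0.3). Of all genes that passed, 83% were higher in the caudal libraries, and 59.1% after quantile normalization. The 12 surface ectoderm markers averaged -0.34 to -0.02 in the caudal libraries and -0.11 to 0.97 in the non-floor plate ones, and their part was not tested. The other 9 differences ran from -1.10 (Bmp4) to 0.83 (Id2) and did not pass; Smad6 (-0.28, adjusted p = 1) did not overlap between the groups. No other pathway gene passed.

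Floor plate and non-floor plate were not separated by any of the 10 genes, where 0.181% of all genes passed; 3 members and 905 of all genes had an unadjusted limma p under 0.05. The 10 differences ran from -1.32 (Id1) to 0.51 (Bmp2). Id1 was at -2.46, -2.12, -1.40 and -0.08 in the floor plate and 0.31, 0, -0.36, -0.61 and -0.33 in the non-floor plate (difference -1.32 ± 0.49, adjusted p = 0.593). In 3 of 4 floor plate libraries Id1 lay below every other E8.5 library. The exception, replicate 4, also stood apart in Bmp2 (3.51, others -0.12 to 0.09), Bmp4 (3.91, others -1.08 to -0.46) and Nog (2.27, others -0.46 to -0.24). It was the highest floor plate library in Bmp7 (1.19) and Bambi (1.80) too, but was not flagged for these by the check of single libraries given below. The floor plate is the ventral strip of the neural tube, whereas BMP ligands are classically known from its dorsal side and the overlying ectoderm. In that library the mesenchyme and surface ectoderm lists averaged 0.27 and 0.61, against -0.71 to -0.33 and -0.17 to 0.07 in the other 3 floor plate libraries. The part of these marker differences in the library's values was not tested.

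**Figure D2:**
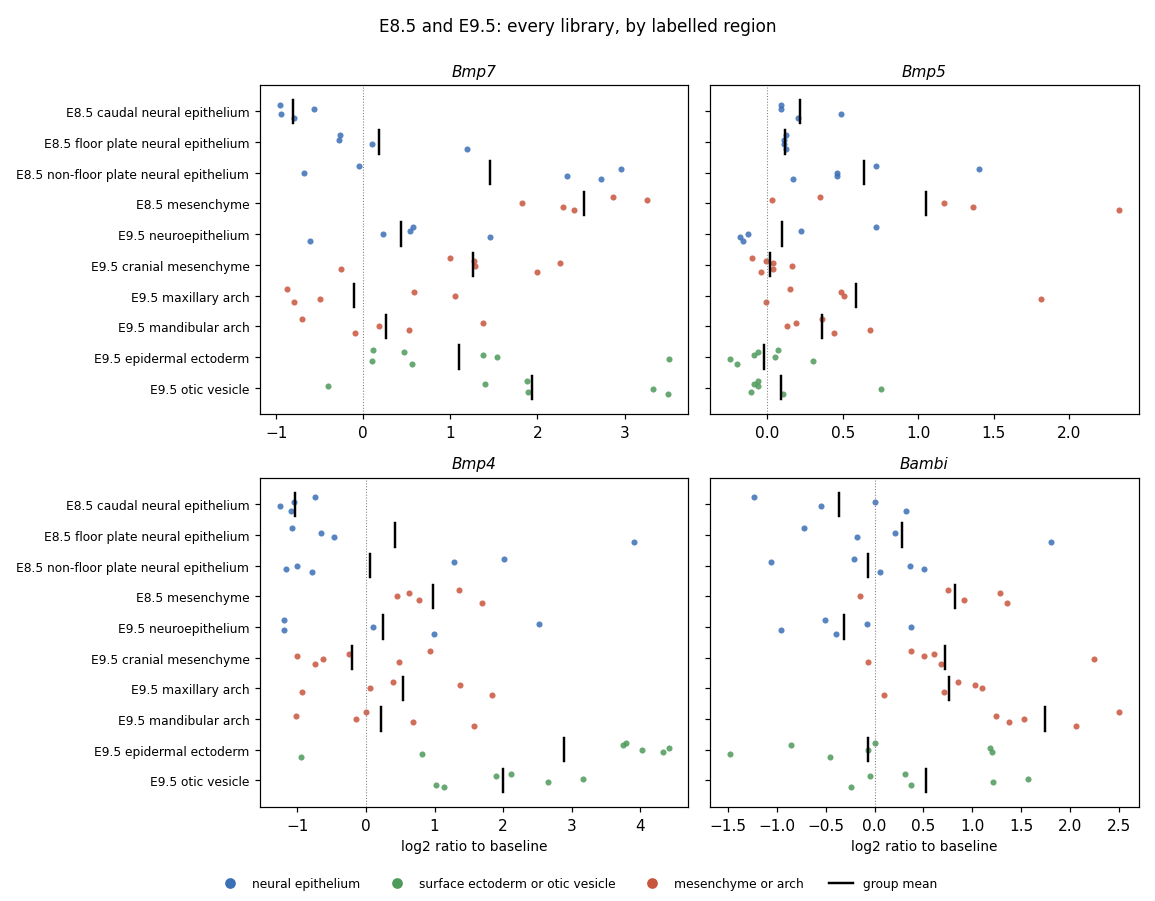
Log2 ratio of Bmp7, Bmp5, Bmp4 and Bambi (panels, with separate x ranges) in every E8.5 and E9.5 library (points), by labelled region, with the group mean as a black bar. Bmp7 lies at 1.82 or above in all 5 E8.5 mesenchyme libraries, Bmp4 at 3.75 or above in 5 of 7 E9.5 epidermal ectoderm libraries, and Bambi at 1.24 or above in all 5 E9.5 mandibular arch libraries.

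At E9.5 the surface ectoderm carried Bmp4. The 7 epidermal ectoderm libraries stood at 3.79, 3.75, 4.42, 4.02, 4.33, 0.82 and -0.95. The otic vesicle, a derivative of the otic placode, came next with 1.02 to 3.16 over 6 libraries. The maxillary arch (0.54 ± 1.10, n = 5), neuroepithelium (0.25 ± 1.58, n = 5), mandibular arch (0.22 ± 0.97, n = 5) and cranial mesenchyme (-0.20 ± 0.76, n = 6) had lower means. Neighbouring groups in this order overlapped. The lowest ectoderm library, replicate 7, has the widest array of the series (SD 1.35), and without it the ectoderm libraries ran from 0.82 upwards.

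Against the 10 libraries of the 2 arches (lowest -1.02, median 0.23, highest 1.84), Bmp4 was 2.50 ± 0.63 higher in the ectoderm (median 3.79; 5.66-fold, adjusted p = 0.00201), and it passed under every alternative run. Bambi went the other way: it ran from -1.48 to 1.20 in the ectoderm (median -0.07) and from 0.10 to 2.50 in the arches (median 1.17), a difference of -1.32 ± 0.35 (adjusted p = 0.00294). After quantile normalization Bambi's difference was -0.79 and did not pass (adjusted p = 0.132). Nor did Bambi pass with the compared groups alone and replicate number as a block (-1.2, adjusted p = 0.107). Smad6 was 0.40 ± 0.16 higher (adjusted p = 0.0433) and Bmp5 0.50 lower (difference -0.50 ± 0.19, adjusted p = 0.0333), with overlapping libraries. Thus 4 of the 10 genes passed, 2 in each direction, where 37% of all genes did (13.6% higher, 23.3% lower), so that the share of members was close to the background. Of all genes that passed, 36.9% were higher in the ectoderm, and 65.6% after quantile normalization.

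The Smad6 and Bmp5 calls were weak. Smad6 did not pass under quantile normalization (adjusted p = 0.0905), without the widely spread arrays (0.0711), with array SD as a covariate (0.113), with the sample of conflicting labels counted as ectoderm (0.0786), or without any of ectoderm replicates 2, 3, 5 or 7, mandibular replicates 2 or 5, or maxillary replicates 1, 2 or 3 (0.0549 to 0.112). Bmp5 did not pass under quantile normalization (0.134), with array weights (0.0813), without the widely spread arrays (0.0862), with the covariate (0.0518), with the 3 groups alone (0.0805), or without ectoderm replicates 2, 5 or 7, mandibular replicate 5 or maxillary replicate 4 (0.0517 to 0.11).

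Bmp7 (1.02 ± 0.46, adjusted p = 0.0729) and Bmp2 (0.67 ± 0.31, adjusted p = 0.0747) missed the threshold and passed under quantile normalization (adjusted p = 0.0225 and 0.0106) and with array weights (0.0458 and 0.0241). Id2 (1.33 ± 0.68, adjusted p = 0.111), Nog (0.35), Id1 (-0.46) and Id3 (-0.03) did not pass. The 12 surface ectoderm markers averaged 0.75 to 2.08 in the ectoderm and -0.57 to 0.88 in the arches. Mesenchyme markers averaged -0.84 to 0.59 against 1.44 to 2.38 and endothelial markers -0.40 to 0.71 against 0.26 to 2.03. Erythroid markers averaged -2.15 to 0.22 against -0.01 to 1.81. The part of these marker differences in each gene's difference was not tested. Of the 54 other pathway genes 10 were higher in the ectoderm and 11 lower. The largest differences were lower values of Fstl1 (-2.17 ± 0.48, adjusted p = 0.000541), Atoh8, a basic helix-loop-helix gene (-1.82 ± 0.21, adjusted p = 5.73e-10), and Nbl1 (-1.67 ± 0.42, adjusted p = 0.00182).

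Bambi had its highest E9.5 mean in the mandibular arch (1.74 ± 0.52, n = 5), next to the maxillary arch (0.76 ± 0.40, n = 5). The 5 mandibular libraries stood at 2.50, 1.24, 1.53, 1.38 and 2.06, and the 5 maxillary libraries at 0.85, 1.03, 1.10, 0.71 and 0.10, without overlap. Cranial mesenchyme (up to 2.24) and otic vesicle (up to 1.57) reached into the mandibular range. The difference between the arches of 0.99 ± 0.45 did not pass (adjusted p = 1), in a comparison where 0.0702% of all genes and no member passed (unadjusted limma p under 0.05: 1 member, 692 genes). The other 9 differences between the arches ran from -0.75 (Id2) to 0.37 (Bmp7). Id1 was above the baseline in all 5 mandibular libraries (0.62 to 1.11) and in 4 of 5 maxillary libraries (-0.09 to 1.08).

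No member passed in the other 3 comparisons at E9.5: arches against cranial mesenchyme (0.933% of all genes passed; unadjusted p under 0.05 for 3 members and 2682 genes), neuroepithelium against cranial mesenchyme (1.15%; 3 and 1425) and otic vesicle against epidermal ectoderm (0.391%; 2 and 2209). With array weights Id2, Id3 and Bmp7 passed in the first of these (adjusted p = 0.00638, 0.0358 and 0.0376). Id2 in cranial mesenchyme was at -2.46, -0.69, -2.79, 1.82, -1.95 and -3.31, low in 4 of 6 libraries and high in 1. The 10 differences ran from -1.18 (Bmp7) to 1.64 (Id2) in the first comparison, from -1.04 (Bambi) to 1.39 (Id2) in the next and from -1.89 (Id2) to 0.84 (Bmp7) in the last. Other pathway genes passed there: in the arches Msx2 (1.67 ± 0.33, adjusted p = 0.00164), Atoh8 (1.52 ± 0.22, adjusted p = 1.7e-06) and Bmp1, a protease that cleaves the antagonist chordin (0.89 ± 0.24, adjusted p = 0.0431), were higher. Id4, the Id family member outside the chosen set, was 1.64 ± 0.35 higher in neuroepithelium than in cranial mesenchyme (adjusted p = 0.00271), and Tbx3, a T-box gene, 0.94 lower (difference -0.94 ± 0.23, adjusted p = 0.0168). Tbx2 was 1.75 ± 0.40 higher in the otic vesicle than in the ectoderm (adjusted p = 0.0177).

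At E10.5 most of the 10 genes differed between the nasal prominences and the neuroepithelium lying under them. Bmp4, Bmp7, Bambi, Smad6, Id1 and Id2 were higher in the prominences and Nog was higher in the neuroepithelium. That is 7 of 10 genes, 6 higher and 1 lower, where 20.9% of all genes passed (5.98% higher, 14.9% lower). The median difference of the 10 genes was 1.08, against -0.05 over all genes. Of all genes that passed, 28.6% were higher in the prominences, and 53.8% after quantile normalization, under which 7 members were higher and 1 lower. How many of all genes passed under that normalization is not given here.

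Among the ligands, Bmp4 stood at 2.31, 2.27, 1.87 and 3.71 in the medial and 2.57, 3.48, 2.63 and 0.90 in the lateral prominence. In the neuroepithelium under the medial prominence it was at -0.45, -0.95, -0.99 and -1.13, and under the lateral at -0.38, -1.17, -1.20 and -0.94. Every prominence library lay above every library of the neuroepithelium. The difference was 3.37 ± 0.64 (10.3-fold, adjusted p = 0.000105). Bmp7 was 1.37 ± 0.47 higher (2.59-fold, adjusted p = 0.0288): it ran from -0.29 to 2.62 in the prominences (median 0.45) and from -1.05 to -0.32 in the neuroepithelium (median -0.73), without overlap. The Bmp7 call was lost without lateral prominence replicate 3 (adjusted p = 0.0877), medial prominence replicate 3 (0.0629), under-lateral replicate 1 (0.0525) or under-medial replicate 4 (0.0518). Bmp2 (0.12 ± 0.31, adjusted p = 0.818) and Bmp5 (-0.11 ± 0.19, adjusted p = 0.712) did not pass.

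Among the inhibitors, Nog was at 3.24, 1.37, 2.78 and 0.92 under the medial prominence and at 1.71, 0.09, 1.05 and -0.21 under the lateral. In the medial prominence it was at -0.04, -0.26, -0.48 and -0.42, and in the lateral at -0.11, -0.19, -0.18 and 2.06. The last of these, lateral replicate 4, is a widely spread array and the only prominence library above 0. Nog's difference was -1.32 ± 0.34, a 2.49-fold lower ratio in the prominences (adjusted p = 0.00397); with the 4 groups alone its adjusted p was 0.0516.

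The other 2 inhibitor genes, Bambi and Smad6, differed in the same direction as Bmp4 and Bmp7. Whether BMP signalling sets this direction was not tested. Bambi ran from -0.98 to 1.21 in the prominences (median 0.60) and from -1.33 to -0.18 in the neuroepithelium (median -0.74), and was 1.21 ± 0.35 higher (adjusted p = 0.0102). The medial prominence values, -0.22, -0.98, 0.38 and 0.81, overlapped the neuroepithelium, and the lateral ones, 1.21, 0.15, 0.94 and 1.10, did not. Smad6 was at 1.36, 1.22, 0.51 and 0.87 in the medial and 0.37, 0.52, 0.56 and 0.61 in the lateral prominence. Under the medial prominence it was at -0.34, -0.61, -0.34 and -0.35, and under the lateral at -0.41, 0.10, -0.26 and 0.63. A single neuroepithelial library, under-lateral replicate 4, reached into the prominence range. The difference of Smad6 was 0.95 ± 0.16 (1.93-fold, adjusted p = 1.49e-05).

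Among the targets, Id1 had the smallest p. In the neuroepithelium it was at -1.96, -0.89, -2.55 and -2.20 under the medial and at -1.30, -4.62, -4.68 and -2.18 under the lateral prominence. In the prominences it was at -0.68, -1.01, 0.04 and 0.39 (medial) and -1.24, 0.66, 0.06 and 0.70 (lateral). All but 1 of the neuroepithelial libraries were thus below -1.24, the lowest prominence value, and the difference was 2.41 ± 0.37 (5.32-fold, adjusted p = 1.25e-06). Bmp4, Bambi, Smad6 and Id1 passed in this comparison under every alternative run.

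Id2 was 2.02 ± 0.69 higher (adjusted p = 0.0276) but wide on both sides, from -2.63 to 2.41 in the prominences (median 0.91) and from -3.46 to 1.73 in the neuroepithelium (median -1.99). Its call was lost without lateral prominence replicates 2 (adjusted p = 0.0924) or 4 (0.0519), medial prominence replicate 4 (0.064), under-lateral replicate 2 (0.0799), under-medial replicates 3 (0.0612) or 4 (0.0717), and with the 4 groups alone (0.159). Id3 did not pass (0.61 ± 0.24, adjusted p = 0.0562). It was at -0.81, -3.55, -0.39 and 0 in the medial prominence and at -0.04, 0.03, 0.09 and 0.51 in the lateral, against -1.77 to -0.47 in the neuroepithelium. The value of -3.55 came from medial replicate 2, a widely spread array (SD 1.13). Without that library the difference was 1.01 and passed (adjusted p = 0.00021), as it did after quantile normalization (1.52, adjusted p = 1.31e-08), with array weights (0.94, adjusted p = 6.74e-05) and without under-lateral replicate 1 (0.75, adjusted p = 0.0295).

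**Figure D3:**
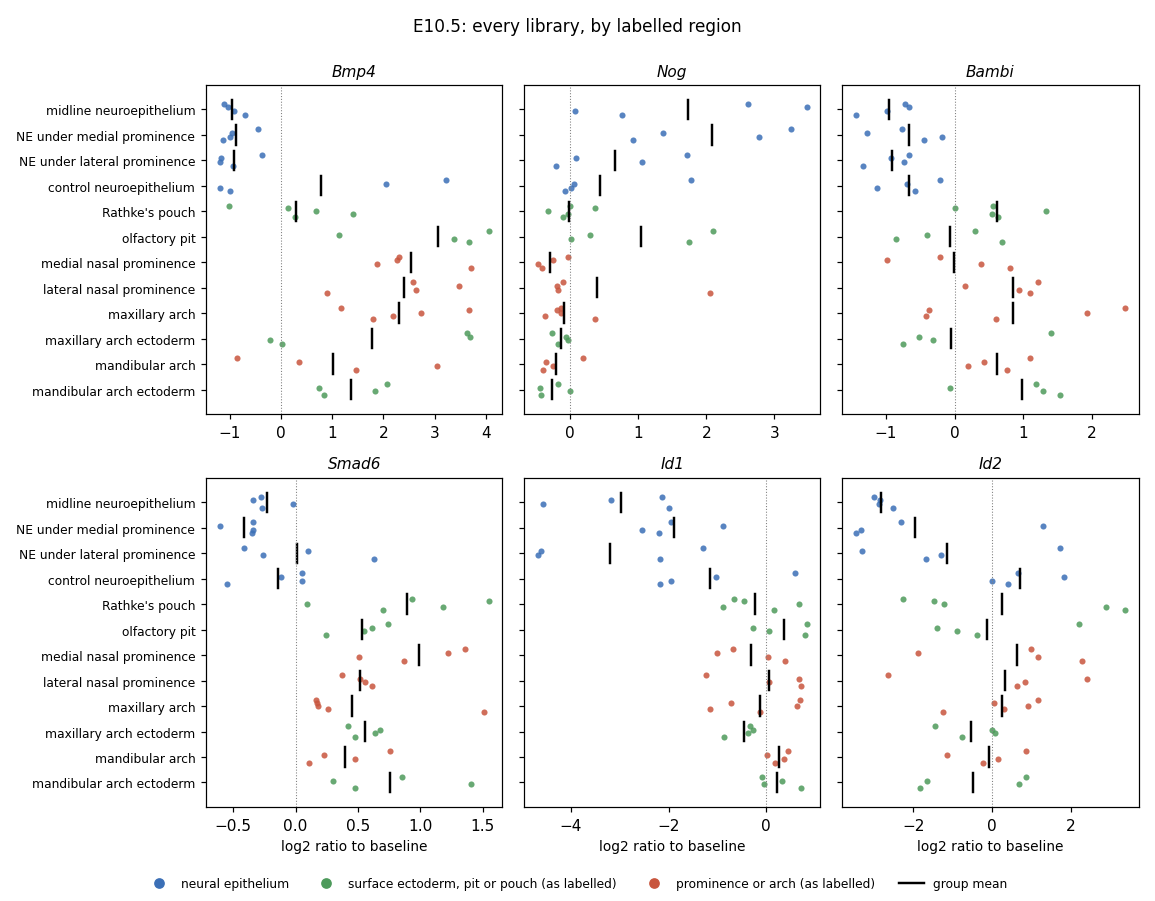
Log2 ratio of Bmp4, Nog, Bambi, Smad6, Id1 and Id2 (panels, with separate x ranges) in every E10.5 library (points), by labelled region (NE, neuroepithelium), with the group mean as a black bar. In the rows of neuroepithelium under a prominence Bmp4 lies at or below -0.38 and Id1 at or below -0.89, while Nog reaches 3.24.

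The 2 sides differ in cell makeup as their labels say. The 11 neural markers averaged 1.02 to 1.92 in the neuroepithelium and -0.62 to 0.10 in the prominences, and the 12 mesenchyme markers -0.96 to -0.65 against 0.49 to 1.94. Endothelial markers averaged -0.17 to 0.82 and -0.16 to 1.09, and 8 macrophage markers -0.12 to 0.48 and 0.32 to 0.94. Array SD ran from 0.51 to 0.75 in the neuroepithelium and from 0.43 to 1.13 in the prominences. With array SD as a covariate, an alternative chosen after the data were seen, 7 members were higher and 1 lower. The share of all genes that passed with the covariate is not given here, so this count has no background beside it. Whether tissue makeup sets these differences was not tested.

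Of the 54 other pathway genes, 12 were higher and 5 lower in the prominences. Among 7 other targets, 5 were higher and 1 lower. Msx1 was 3.92 ± 0.43 higher (adjusted p = 1e-10), with -0.68 to 1.34 in the prominences and -3.95 to -1.82 in the neuroepithelium. Id4 was lower by a like amount (-3.18 ± 0.29, adjusted p = 1.07e-13), with 3.06 to 4.23 in the neuroepithelium and -0.31 to 0.97 in the prominences, against the direction of Id1 and Id2. Among 15 other antagonists, 2 were higher and 0 lower, Nbl1 by 2.30 ± 0.42 (adjusted p = 5.52e-05). Of 9 receptor genes 1 was higher and 1 lower, of 10 Smads and their regulators 2 were higher and 3 lower, and of 10 other ligand genes 2 were higher and 0 lower.

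Rathke's pouch, the oral ectoderm that forms the anterior pituitary, was compared with the midline neuroepithelium. Bambi, Smad6, Id1 and Id2 were higher in the pouch and Nog was lower: 5 of 10 genes, where 20.3% of all genes passed (6.67% higher, 13.6% lower). Of all genes that passed, 32.8% were higher in the pouch, and 54.6% after quantile normalization, under which 5 members were higher and 1 lower. How many of all genes passed under it is not given here. That normalization moved the median difference of all genes here from -0.07 to 0.04.

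Id1 was at -0.66, -0.45, 0.67, -0.88 and 0.16 in the pouch and at -2.14, -3.18, -4.56 and -1.99 in the midline, without overlap, a difference of 2.74 ± 0.49 (6.68-fold, adjusted p = 8.47e-05). Bambi was at 0.56, 0.01, 1.33, 0.54 and 0.63 against -0.72, -0.66, -0.99 and -1.44, also without overlap (1.57 ± 0.47, adjusted p = 0.0149). Smad6 was at 0.93, 1.55, 0.09, 1.18 and 0.70 against -0.28, -0.34, -0.02 and -0.27 (1.12 ± 0.22, adjusted p = 0.000275). The groups did not overlap in Smad6 either, although pouch replicate 3 lay close to the midline.

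Id2 was uniformly low in the midline, at -3.00, -2.84, -2.88 and -2.52. In the pouch it was split, at -2.27, -1.48, -1.23, 2.88 and 3.37, so that 3 libraries lay near the midline values and 2 far above. The difference was 3.06 ± 0.92 (adjusted p = 0.0145). It did not pass without pouch replicates 4 (2.41, adjusted p = 0.0695) or 5 (2.29, adjusted p = 0.066), without the widely spread arrays (0.0953), or with both groups alone (0.172). Nog was at 2.62, 3.48, 0.07 and 0.76 in the midline and at 0, 0.36, -0.33, -0.03 and -0.11 in the pouch (difference -1.75 ± 0.46, adjusted p = 0.00568). Its call was lost without midline replicate 2 (-1.17, adjusted p = 0.0865) and with both groups alone (0.152), that of Bambi without midline replicate 4 (0.0528), and that of Smad6 with both groups alone (0.0686). With both groups alone and replicate number as a block, Id1, Bambi, Smad6, Id2 and Nog all did not pass (adjusted p 0.189 to 0.285).

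No ligand gene passed here. Bmp2 missed the threshold (1.07 ± 0.42, adjusted p = 0.0567), with pouch values of -0.30, 0.03, 3.03, 1.37 and 1.28 against -0.11 to 0.17 in the midline. It passed without pouch replicates 1 (1.41, adjusted p = 0.022) or 2 (1.33, adjusted p = 0.0414) and after quantile normalization (adjusted p = 0.0276). Bmp4 (1.25 ± 0.86, adjusted p = 0.3), Bmp7 (-0.23 ± 0.63), Bmp5 (-0.18 ± 0.26) and Id3 (-0.26 ± 0.32) did not pass either. The list of 6 pituitary markers averaged 2.72 to 3.49 in the pouch and 0.50 to 0.98 in the midline, and the neural list -0.05 to 0.39 against 0.95 to 1.42. Array SD ran from 0.63 to 1.11 in the pouch and from 0.60 to 0.69 in the midline. The part of makeup or array SD in the differences was not tested. With SD as a covariate 4 members were higher and 1 lower, and the share of all genes that passed with it is not given here. Of 54 other pathway genes 11 were higher and 1 lower. The largest differences were those of Msx1 (2.75 ± 0.58, adjusted p = 0.000747), the secreted antagonist Sostdc1 (2.72 ± 0.65, adjusted p = 0.00264) and Bmp3 (1.34 ± 0.18, adjusted p = 2.14e-07).

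**Figure D4:**
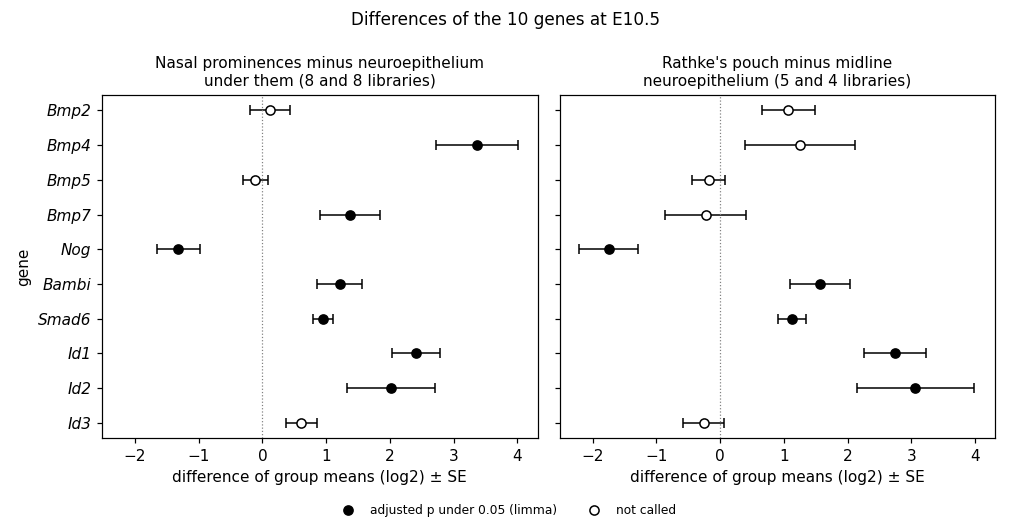
Difference of group means on the log2 scale (x axis, ± SE) for the 10 genes in 2 comparisons at E10.5. The left panel sets nasal prominences against the neuroepithelium under them, the right one Rathke's pouch against midline neuroepithelium. Filled points passed at an adjusted p under 0.05. Nog lies below 0 in both (-1.32 and -1.75), while Bambi, Smad6, Id1 and Id2 lie above it in both; Bmp4 and Bmp7 are filled on the left only, and the difference between the panels was not tested.

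Within the neuroepithelium of E10.5, Id3 was lower under the prominences. It was at -0.47, -1.77, -1.29 and -1.51 under the lateral and at -0.97, -0.71, -1.26 and -1.09 under the medial prominence, against 0.59, 0, 0 and -0.04 in the control neuroepithelium. The sides did not overlap, and the difference was -1.27 ± 0.29 (2.41-fold lower, adjusted p = 0.0208), the only member to pass where 0.296% of all genes did (0.0502% higher, 0.246% lower). The call was lost without control replicates 1 (adjusted p = 0.17) or 4 (0.0548) or under-lateral replicate 2 (0.063), and with the 3 groups alone (0.324). Id1 (-1.40 ± 0.45, adjusted p = 0.339), Id2 (-2.26 ± 0.84, adjusted p = 0.691), Bmp7 (-1.42 ± 0.58, adjusted p = 0.971) and Bmp4 (-1.68 ± 0.79, adjusted p = 1) had negative differences that did not pass. Nor did Bmp2 (-0.63), Bmp5 (-0.43), Bambi (-0.13), Smad6 (-0.06) and Nog (0.93) pass. For Bmp7 the sides, from -1.05 to -0.32 and from -0.32 to 2.12, met without overlapping. Bmp6, another ligand gene, was 1.16 lower under the prominences (difference -1.16 ± 0.23, adjusted p = 0.00299), with overlapping libraries. The comparison of the nasal prominences used the same libraries of neuroepithelium under them.

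In the midline, Id3 was at 0.15, 0.15, -0.18 and -0.11, like the control. Id2 was 3.53 lower than in the control (difference -3.53 ± 0.97, adjusted p = 0.085), whose values were 0.65, 1.82, 0 and 0.40, and Id1 1.83 lower (difference -1.83 ± 0.52, adjusted p = 0.11). The other differences ran from -1.72 (Bmp4) to 1.29 (Nog). None passed, where 0.471% of all genes did (unadjusted p under 0.05: 3 members, 932 genes). Id2 and Id1 passed with array weights (adjusted p = 0.0263 and 0.0257), and Id1 also without midline replicate 4 (0.0422) or control replicate 4 (0.0457). Bmp6 was lower in the midline (-1.11 ± 0.27, adjusted p = 0.0242). The control neuroepithelium itself was mixed for Bmp4, at 3.23, 2.05, -1.20 and -0.99.

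In the order of E10.5 group means, the neuroepithelia held an end of the list for some members and not for others. For Bmp4 it ran from the olfactory pit (3.06 ± 1.31, n = 4) through the medial (2.54 ± 0.80) and lateral (2.40 ± 1.08) prominences and the maxillary arch (2.31 ± 0.95, n = 5) to the 3 neuroepithelia of midline and prominences (-0.95 to -0.88). For Id1 the 4 neuroepithelia took the last 4 places (-3.19 to -1.15), below the maxillary ectoderm (-0.46 ± 0.27). For Bambi they also took the last 4 (-0.95 to -0.66), below the olfactory pit (-0.07 ± 0.70), and for Smad6 the last 4 (-0.41 to 0.02), below the mandibular arch (0.40 ± 0.29). For Nog, neuroepithelia held 4 of the first 5 places, with the olfactory pit (1.04 ± 1.04; libraries at 2.10, 0.29, 0.01 and 1.75) among them. The control neuroepithelium had the highest mean of the 12 groups for Bmp7 (0.73 ± 1.04), Id2 (0.72 ± 0.78) and Bmp5 (0.45 ± 0.55), and the next to highest for Bmp2 (0.59 ± 0.87) after Rathke's pouch. For Id2 the neuroepithelia of the midline and under the prominences were nonetheless lowest (-2.81 to -1.14). For Id3 the control and midline neuroepithelia (0.14 ± 0.30 and 0 ± 0.17) lay near the top and the one under the lateral prominence was lowest (-1.26 ± 0.56). Libraries of neighbouring groups overlapped in all 110 neighbouring pairs at E10.5, in 49 of 50 at E9.5 and in 28 of 30 at E8.5.

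No member passed between medial and lateral nasal prominence (0.115% of all genes passed; unadjusted p under 0.05: 2 members, 1759 genes). Id3 was nearest (-1.33 ± 0.34, adjusted p = 0.0688), again through medial replicate 2; it passed without medial replicates 3 (-1.60, adjusted p = 0.0162) or 4 (-1.73, adjusted p = 0.00371). The other 9 differences ran from -0.85 (Bambi) to 0.48 (Smad6). Tbx3 was 1.52 ± 0.27 higher in the medial prominence (adjusted p = 0.00122). None passed between the olfactory pit and the prominences (0.913%; 1 and 1540) or the maxillary ectoderm (0.692%; 1 and 1998), where Nbl1 (-2.03 ± 0.52, adjusted p = 0.0264) and Sostdc1 (-2.92 ± 0.68, adjusted p = 0.0168) were lower in the pit. The 10 differences ran from -0.60 (Id2) to 0.99 (Nog) against the prominences and from -0.11 (Bmp5) to 1.28 (Bmp4) against the ectoderm. None passed between Rathke's pouch and the maxillary ectoderm (1.63%; 1 and 2798), where Bmp3 was higher in the pouch (1.06 ± 0.18, adjusted p = 0.000214) and Msx2 lower (-1.71 ± 0.43, adjusted p = 0.0191). There the members' differences ran from -1.49 (Bmp4) to 1.18 (Bmp2).

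The 4 arch groups of E10.5 were described with caution, because their markers do not follow the labels throughout. The libraries labelled mandibular arch ectoderm had a mean of 1.37 over mesenchyme and -0.09 over surface ectoderm markers, and those labelled maxillary arch 0.70 and 1.42. The libraries labelled mandibular arch (1.75 and 0.41) and maxillary arch ectoderm (0.12 and 1.69) followed theirs. No member passed between libraries labelled mandibular and maxillary arch (0.772% of all genes; unadjusted p under 0.05: 1 member, 2073 genes), between the 2 ectoderms (1.31%; 1 and 2563) or between ectoderm and arches (0.015%; 0 and 1071). The 10 differences ran from -1.30 (Bmp4) to 0.80 (Id3), from -0.82 (Bmp7) to 1.03 (Bambi) and from -0.67 (Bmp7) to 0.23 (Smad6) in turn. Bmp4 was at 1.17, 3.67, 2.73, 2.18 and 1.79 in the maxillary arch libraries, all above the baseline. In the maxillary ectoderm libraries it was split, at 3.64, 3.69, -0.21 and 0.02. Bambi was split in the maxillary arch libraries, at 2.48, -0.37, 1.93, -0.42 and 0.60. Sostdc1 was lower in the mandibular than in the maxillary libraries of both kinds (-3.48 ± 0.65, adjusted p = 0.000786, and -3.07 ± 0.68, adjusted p = 0.00786), and Atoh8 higher in the mandibular ectoderm libraries (1.19 ± 0.30, adjusted p = 0.0216).

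Across stages a single member passed. Bmp5 fell in mesenchyme from E8.5 (0.35, 0.03, 1.17, 1.36 and 2.33) to the cranial mesenchyme of E9.5 (-0.10 to 0.16 over 6 libraries), a difference of -1.03 ± 0.23 (adjusted p = 0.00563), where 1.53% of all genes passed (0.381% higher, 1.15% lower). Without E8.5 mesenchyme replicate 5 the difference was -0.71 and did not pass (adjusted p = 0.138), nor did it with both groups alone (0.26). Bmp7 (-1.27 ± 0.57, adjusted p = 0.348) and Id2 (-2.17 ± 0.83, adjusted p = 0.232) were lower without passing; Id2 passed with array weights (adjusted p = 0.00263). Of all genes that passed, 24.9% were higher at E9.5, and 47.9% after quantile normalization. Among the other pathway genes 1 rose and 6 fell, the largest being Fst, which encodes the antagonist follistatin (-1.92 ± 0.37, adjusted p = 0.000443), Msx2 (-1.59 ± 0.39, adjusted p = 0.0128) and Atoh8 (-1.56 ± 0.26, adjusted p = 2.43e-05). The other members ran from -1.19 (Bmp4) to -0.03 (Nog). The list of 7 erythroid markers averaged -2.97 to -0.54 at E8.5 and 0.60 to 1.64 at E9.5, without overlap, and the endothelial list 1.36 to 2.18 and 0.62 to 2.00. Mesenchyme markers averaged 1.84 to 2.38 and 1.62 to 2.64. The part of these shifts in the Bmp5 difference was not tested. The captured regions of both stages need not be the same part of the head.

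In the other 5 stage comparisons no member passed. The first set E9.5 neuroepithelium against E8.5 non-floor plate (1.06% of all genes passed, unadjusted limma p under 0.05 for 1 member and 1742 genes). The next set the E10.5 control neuroepithelium alone against E9.5 neuroepithelium (0.426%, 0 and 1129). Then came E10.5 maxillary arch ectoderm against E9.5 epidermal ectoderm (0.361%, 3 and 2077). The last were the libraries labelled maxillary arch (8.56%, 2 and 5422) and mandibular arch (6.98%, 2 and 5046). The 10 differences ran from -1.02 (Bmp7) to 0.18 (Bmp4), from -0.34 (Bambi) to 0.89 (Id2), from -1.94 (Id2) to 0.21 (Smad6), from -0.77 (Id1) to 1.76 (Bmp4) and from -1.13 (Bambi) to 0.79 (Bmp4) in that order. Id4 was 2.29 ± 0.37 higher in E9.5 neuroepithelium than in the E8.5 non-floor plate (adjusted p = 1.74e-05). Bmp6 was 1.09 ± 0.26 higher in the E10.5 control neuroepithelium than in E9.5 neuroepithelium (adjusted p = 0.0186). Under the prominences and in the midline Bmp6 was lower than in that control, as given above. In the maxillary arch libraries Sostdc1 rose (3.76 ± 0.61, adjusted p = 4.89e-05), as did Hand1 (1.35 ± 0.42, adjusted p = 0.0328), and Smad4 fell (-1.58 ± 0.44, adjusted p = 0.0165). In the mandibular arch libraries Atoh8 (-1.68 ± 0.28, adjusted p = 9.64e-05), Skil (-0.46 ± 0.13, adjusted p = 0.0253) and Tll1 (-0.22 ± 0.06, adjusted p = 0.0163) fell. Between E9.5 and E10.5 the surface ectoderm list went from 0.05 to 1.42 in the maxillary and from -0.10 to 0.41 in the mandibular arch libraries. The mesenchyme list went from 1.78 to 0.70 and from 1.95 to 1.75. The part of these marker shifts in the stage differences was not tested.

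As a description over the 22 group means, which share the baseline and the captured tissues, the members' profiles were set beside each other and beside all genes by Pearson's r. Bambi and Id1 had r = 0.76 and Bmp4 and Smad6 r = 0.72, while Nog ran opposite to Bambi (-0.72) and Id1 (-0.67). The genes most like Nog were Rundc3a (0.95), Ttc9b (0.91) and Hes5 (0.89), and those most like Id1 were Rbms1 (0.84), Msx1 (0.83) and Tes (0.78). Bmp4 was nearest to Entpd2 (0.85), Olfr713 (0.83) and Lrrc36 (0.82), Bambi to Rarg (0.89), Gpsm3 (0.87) and Nab2 (0.84), and Smad6 to 9130213A22Rik, Oxt and Fgf22 (each 0.95). Bmp5 was nearest to 9930012K11Rik (0.86), 1700065D16Rik (0.84) and Vegfc (0.83), and Bmp7 to Chil1 (0.79), Cmtm5 (0.73) and Klk6 (0.70). For Bmp2 they were Gpr63 (0.78), Galntl5 (0.74) and Bex1 (0.74), for Id3 Zmynd19 (0.77), Wdr45 (0.76) and Rcn3 (0.75), and for Id2, the least matched, Mrps16 (0.68), Ankrd34c (0.64) and Ly75 (0.64).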

How the data were processed

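Regions were laser-captured, and RNA was amplified, labelled and hybridised to Affymetrix whole-transcript arrays, per the labels' protocols. RMA, with no version, and mm9 are named in the submitters' processing notes. The authors deposited linear ratios per probe set; the median over 21 arrays is 1 within 6e-08, which is how the baseline was inferred. No detection call or background was given with them, and the log2 of the ratio replaced the log2 levels the design assumed. Of 28856 probe sets with values, 21789 have 1 symbol; for genes with several, the highest mean was used.

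A mean per group was fitted over the libraries of all 22 groups with limma 3.58.1 in R 4.3.3 (80 residual degrees of freedom), with contrasts that weight groups equally, eBayes, F tests per stage and Benjamini-Hochberg adjustment over 19938 genes within each contrast (threshold 0.05). SE and p pool the spread over 22 groups. The number of arrays limits precision. On data simulated for 3 contrasts (floor plate, ectoderm against arches, nasal prominences against neuroepithelium), the test found 65%, 70% and 72% of genes changed 2-fold and 82%, 92% and 90% of genes changed 4-fold. False calls made up 6.96%, 4.71% and 7.43% in turn. The simulated noise was normal, independent between libraries and of the same SD in every group for a gene. In the data, group SDs differed, for Id2 at E10.5 from 0.20 in the midline to 2.65 in Rathke's pouch. The simulated rates therefore need not hold for the data.

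An E9.5 sample whose labels name both mandibular arch and epidermal ectoderm was left out. For 4 neuroepithelium libraries the title says lateral and the other labels medial; they were grouped as medial. The 10 genes, the pathway and marker lists and the limit of 0.85 on array SD were chosen with earlier results of these data known. The rule for naming takes every member in every comparison (in comparisons without a call, by the range of differences), at most 3 passing pathway genes with the largest differences, the 3 genes closest to each member over group means, and markers where a label is checked. Each result was also computed with array weights, after quantile normalization, with a robust trended prior, with probe sets averaged, without widely spread arrays, with array SD as a covariate (added after the data were seen), with other placements of the conflicting samples, on the compared groups alone with and without a replicate block, and without each library.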

Additional observations from a re-analysis of the deposited data

Results flagged for a closer look

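In groups of 4 to 7 libraries, the highest or lowest library was tested for its gap to the nearest other with Dixon's ratio. Of 220 sets of gene and group, 25 had a library apart from the rest, where chance gives about 1 in 20.

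Floor plate replicate 4 at E8.5 stood apart in 3 genes, with Bmp2 at 3.51 (others -0.12 to 0.09), Bmp4 at 3.91 (others -1.08 to -0.46) and Nog at 2.27 (others -0.46 to -0.24). Ligand and antagonist were high in the same library.

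Among the ligands, Bmp2 was at 2.44 in E9.5 epidermal ectoderm replicate 1 (others -0.01 to 1.03), at 0.52 in E9.5 mandibular arch replicate 2 (others -0.16 to -0.04) and at -0.18 in E10.5 mandibular arch replicate 3 (others -0.07 to -0.05). Bmp5 was at 1.81 in E9.5 maxillary arch replicate 4 (others -0.01 to 0.51), at 0.75 in otic vesicle replicate 4 (others -0.11 to 0.10) and at 1.66 in E10.5 maxillary arch replicate 1 (others -0.24 to 0.01). It was low, by small amounts, in E10.5 mandibular arch replicate 1 (-0.30), medial nasal prominence replicate 1 (-0.20) and Rathke's pouch replicate 4 (-0.24). Bmp7 was at 3.51 in E9.5 epidermal ectoderm replicate 5 (others 0.10 to 1.54).

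Among the inhibitors, Nog was at 0.24 in E9.5 mandibular arch replicate 2 (others -0.43 to -0.35), at 1.77 in E10.5 control neuroepithelium replicate 1 (others -0.08 to 0.06) and at 2.06 in lateral nasal prominence replicate 4 (others -0.19 to -0.11), a widely spread array. Bambi was at 2.24 in cranial mesenchyme replicate 4 (others -0.07 to 0.68). Smad6 was at 1.51 in E10.5 maxillary arch replicate 5 (others 0.16 to 0.26) and at -0.61 under the medial prominence in replicate 2 (others -0.35 to -0.34).

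Among the targets, E9.5 neuroepithelium replicate 1 was low in both Id1 (-3.05, others -0.58 to 0) and Id3 (-0.56, others -0.09 to 0.09). Id1 was at 0.58 in cranial mesenchyme replicate 2 (others -0.03 to 0.19) and at -0.87 in maxillary arch ectoderm replicate 4 (others -0.37 to -0.28). Id3 was at -1.43 in otic vesicle replicate 6 (others -0.15 to 0.22) and at 0.59 in control neuroepithelium replicate 1 (others -0.04 to 0), the library that also stood apart in Nog.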

How the results depend on the processing

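Over all members, comparisons and alternatives, 4929 values kept their side of the threshold, 76 lost a call and 35 gained a call. Direction was checked only for pairs that passed in the main fit, and 0 of their values reversed. The count of calls at E10.5 (13) became 7 with the compared groups alone. Under the same setting the count at E8.5 (3) became 1. The E9.5 count (4) became 8 with array weights and 2 without the widely spread arrays. The count across stages (1) became 5 with array weights and 0 with the compared groups alone. By F test, the 3 members at E8.5 became 1 without the widely spread arrays. The 3 at E9.5 became 5 under quantile normalization, 6 with array weights and 5 with the conflicting sample as mandibular arch. With each library left out in turn, calls ran from 1 to 3 at E8.5, from 2 to 5 over E9.5 regions, from 11 to 15 over E10.5 regions and from 0 to 2 across stages; members passing the F test ran from 1 to 3, from 2 to 4 and from 6 to 7. Calls at E8.5 fell to 1 without non-floor plate replicate 5, and at E9.5 to 2 without ectoderm replicates 2, 5 or 7 or mandibular arch replicate 5. Across stages they rose to 2 without E10.5 maxillary arch replicate 1. Shares of all genes that passed under these settings are not given beside the counts.

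Replicate numbers are shared between groups, and whether they pair the samples is not given. Deviations of same-numbered libraries correlated above 0.1 in 0 of 25, 25 of 76 and 62 of 221 pairs at the 3 stages. How many differently numbered pairs did so is not given here, so these counts have no background beside them. The mean correlation of same-numbered pairs was 0, 0 and -0.02, against 0, 0 and 0.01 for other pairs. The highest same-numbered pairs reached 0.07, 0.69 and 0.56. In turn, 1 of 18, 4 of 33 and 3 of 46 libraries correlated best with their own number. The numbers thus gave no general pairing, but the check cannot tell which libraries share an embryo. With the replicate block, calls were 0 for E8.5 regions, 1 for E9.5 regions and 0 for E10.5 regions, the last over 9 comparisons with 5 calls without it; F tests gave 0 for the first stage, 1 for the second and 5 for the last, against 3, 3 and 7. No paired analysis was possible for comparisons with the neuroepithelium under the medial prominence, because its title numbers (5 to 8) are not among those of the groups it was compared with (1 to 4), or between stages, whose embryos differ. The number of arrays, and ratios without a background, limit what can be seen of weak genes.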

Other observations

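The E9.5 sample with conflicting labels, mandibular arch in its title and epidermal ectoderm in its description, had log2 ratios of 1.24 for Bmp4, 1.00 for Bmp7, 0.16 for Bmp2 and 0.13 for Bmp5. Its inhibitor genes were at 0.99 (Bambi), -0.08 (Smad6) and -0.45 (Nog), and its target genes at 0.69 (Id1), 0 (Id2) and -0.05 (Id3). For Bmp4 this lies within the range of both the mandibular arch (-1.02 to 1.58) and the epidermal ectoderm (-0.95 to 4.42). For Bambi it lies below the mandibular arch libraries (1.24 to 2.50) and within the ectoderm ones (-1.48 to 1.20). For Id1 it lies within both.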
